A study of Mus musculus with 8 samples.

Results

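The phagocyte NADPH oxidase and the pentose phosphate pathway are represented here by 9 genes, picked by symbol from the 16505 genes of the deposited expression table, and all 9 had values in all 8 libraries. The oxidase genes are Cybb, Cyba, Ncf1, Ncf4 and Rac2, and the pentose phosphate genes are G6pdx, Pgd, Taldo1 and Tkt. Polyadenylated RNA was sequenced from epididymal white adipose tissue, a visceral fat depot, of C57BL/6 mice fed a high fat diet for 12 weeks. One group of 4 mice was wild type (WT) and the other 4 carried a Mir181 double-knockout (knockout below, DKO in the plots). The diet and the labelled strain were the same in both groups, and no substrain of C57BL/6 is given. The labels also do not say which miR-181 loci were deleted, and the deletion itself was not measured because the table has no miR-181 row. No source used here states age, litter or housing, so p-values reflect the spread between these 8 libraries.

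The oxidase is the enzyme of phagocytes that moves electrons from NADPH across a membrane to oxygen and so makes superoxide. Its membrane core is gp91phox (Cybb), which carries the electrons, held by p22phox (Cyba). On activation further subunits, among them the organizer p47phox (Ncf1), p40phox (Ncf4) and the GTPase Rac2, join the core from the cytosol. NADPH is renewed by the oxidative branch of the pentose phosphate pathway through glucose-6-phosphate dehydrogenase (G6pdx) and 6-phosphogluconate dehydrogenase (Pgd), while transaldolase (Taldo1) and transketolase (Tkt) of the other branch return the sugars to glycolysis. In obese fat the oxidase is known from macrophages, whereas adipocytes also need NADPH, for fatty acid synthesis.

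The miR-181 microRNAs are shown first because the mice lack some of them. A microRNA pairs with messenger RNAs through its seed, bases 2 to 8, given in capitals (RefSeq, build GRCm38.p6), and all 4 family members carry the same seed.
miR-181a-5p: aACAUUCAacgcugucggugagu
miR-181b-5p: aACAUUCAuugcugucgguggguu
miR-181c-5p: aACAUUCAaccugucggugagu
miR-181d-5p: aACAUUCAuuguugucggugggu
The longest annotated 3′ UTR of each of the 9 genes (GENCODE M21) was searched for TGAATGT, the 7 bases that pair with this seed, and 0 of the 9 held it. Of the 12870 tested genes with such a UTR, 18.5% held it. The shorter GAATGT was present in 1 of the 9, Cybb, and in 36.4% of tested genes. The search covers these letters in these UTRs and says nothing of other kinds of pairing.

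The start regions of the oxidase gene Cybb and the pentose gene G6pdx are printed because each holds a match to a motif searched, that of PU.1 or of NRF2. Each runs from 250 bases before to 50 after the RefSeq start. The first is Cybb, GRCm38.p6, minus strand, chrX:9469275-9469574. The capitals mark its only match to GAGGAA, the core of the box bound by PU.1 (a transcription factor of myeloid cells). The match reads TTCCTC along the gene, beginning at base 10 after the start.
Cybb: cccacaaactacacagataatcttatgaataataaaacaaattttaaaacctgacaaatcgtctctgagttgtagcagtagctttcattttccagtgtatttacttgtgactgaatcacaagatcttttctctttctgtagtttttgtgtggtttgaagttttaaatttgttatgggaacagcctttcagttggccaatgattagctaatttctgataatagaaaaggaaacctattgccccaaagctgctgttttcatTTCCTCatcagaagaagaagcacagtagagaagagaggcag
The second is G6pdx, GRCm38.p6, minus strand, chrX:74428831-74429130. Here the capitals mark a match to TGACNNNGC, the core of the antioxidant response element bound by NRF2, which reads GCTCAGTCA along the gene and begins 57 bases before the start.
G6pdx: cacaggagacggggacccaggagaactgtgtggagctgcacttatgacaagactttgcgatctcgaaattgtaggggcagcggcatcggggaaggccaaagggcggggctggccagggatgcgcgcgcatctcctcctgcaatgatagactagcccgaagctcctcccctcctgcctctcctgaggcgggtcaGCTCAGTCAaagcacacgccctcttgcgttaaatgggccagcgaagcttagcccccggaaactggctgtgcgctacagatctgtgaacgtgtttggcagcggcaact
Both strands were searched, and the motifs do not overlap each other in these windows. RefSeq windows were at hand for 7 of the 9 genes (8 windows, 2 of them for Pgd). GAGGAA lay in the Cybb window but not in those of Cyba, Ncf1, G6pdx, Pgd, Taldo1 or Tkt, against 28.3% of all 32851 windows. TGACNNNGC lay in the G6pdx window and in 1 of the 2 Pgd windows, against 12.4% of all windows. A match is a description of the sequence and not a measured binding site.

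Levels are given in log2 CPM, that is reads of a gene scaled by the library's total and logged. A change is the knockout mean minus the WT mean of these values, with its limma SE. A gene was called at an adjusted p under 0.05 over all 13797 tested genes. Depth ran from 3736881 to 76838584 reads, and each of the 9 genes had at least 60 reads in every library. Libraries also differed in reads of ribosomal RNA genes (above 1% in WT replicates 1, 3 and 4 and knockout replicate 1), of the epididymis (above 1% in WT replicate 2 and knockout replicates 2 and 4) and of red blood cells (up to 1.20% in knockout replicate 4, at most 0.0466% in WT). Over all tested genes the median change was 0.18. Calls were 58.6% higher ones with scaling to totals, but 46.4% after centring libraries on their medians, 48.2% after quantile normalization and 44.9% with median-ratio size factors.

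All 5 oxidase genes fell in the knockout, by 4.41-fold to 5.61-fold, and their libraries did not overlap between the groups. Among all tested genes 16.1% were called lower, 22.7% were called higher, and 16.6% had every knockout library below every WT library. Of the 4 pentose phosphate genes 1 was called lower, Pgd, by 1.34-fold, and 0 were called higher by limma (1 at an unadjusted p under 0.05, Tkt). The median change was −2.38 for the oxidase genes and 0.01 for the pentose genes. All 5 oxidase genes were also called without the 3 libraries rich in epididymis reads.

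The membrane core was lower in every knockout library. Cybb, the electron-carrying subunit whose loss causes chronic granulomatous disease, stood at 8.65, 8.49, 8.64 and 8.49 log2 CPM in WT replicates 1 to 4. In the knockout it stood at 6.90, 6.27, 5.68 and 5.91. WT libraries lay within a narrow band, and the knockout libraries were spread more widely, with replicate 1 highest and replicate 3 lowest. The change in Cybb was −2.38 ± 0.23 (adjusted p = 0.000119), a 5.19-fold lower level. Cyba, the partner that stabilizes gp91phox and docks the cytosolic subunits, had WT levels of 7.71, 7.91, 7.46 and 7.93 log2 CPM. Its knockout levels were 5.71, 5.28, 5.15 and 4.91. The lowest WT library was above the highest knockout library by more than either group's spread, and Cyba changed by −2.49 ± 0.18 (adjusted p = 3.08e-05). Of the 9 genes it had the lowest fitted change.

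**Figure D1:**
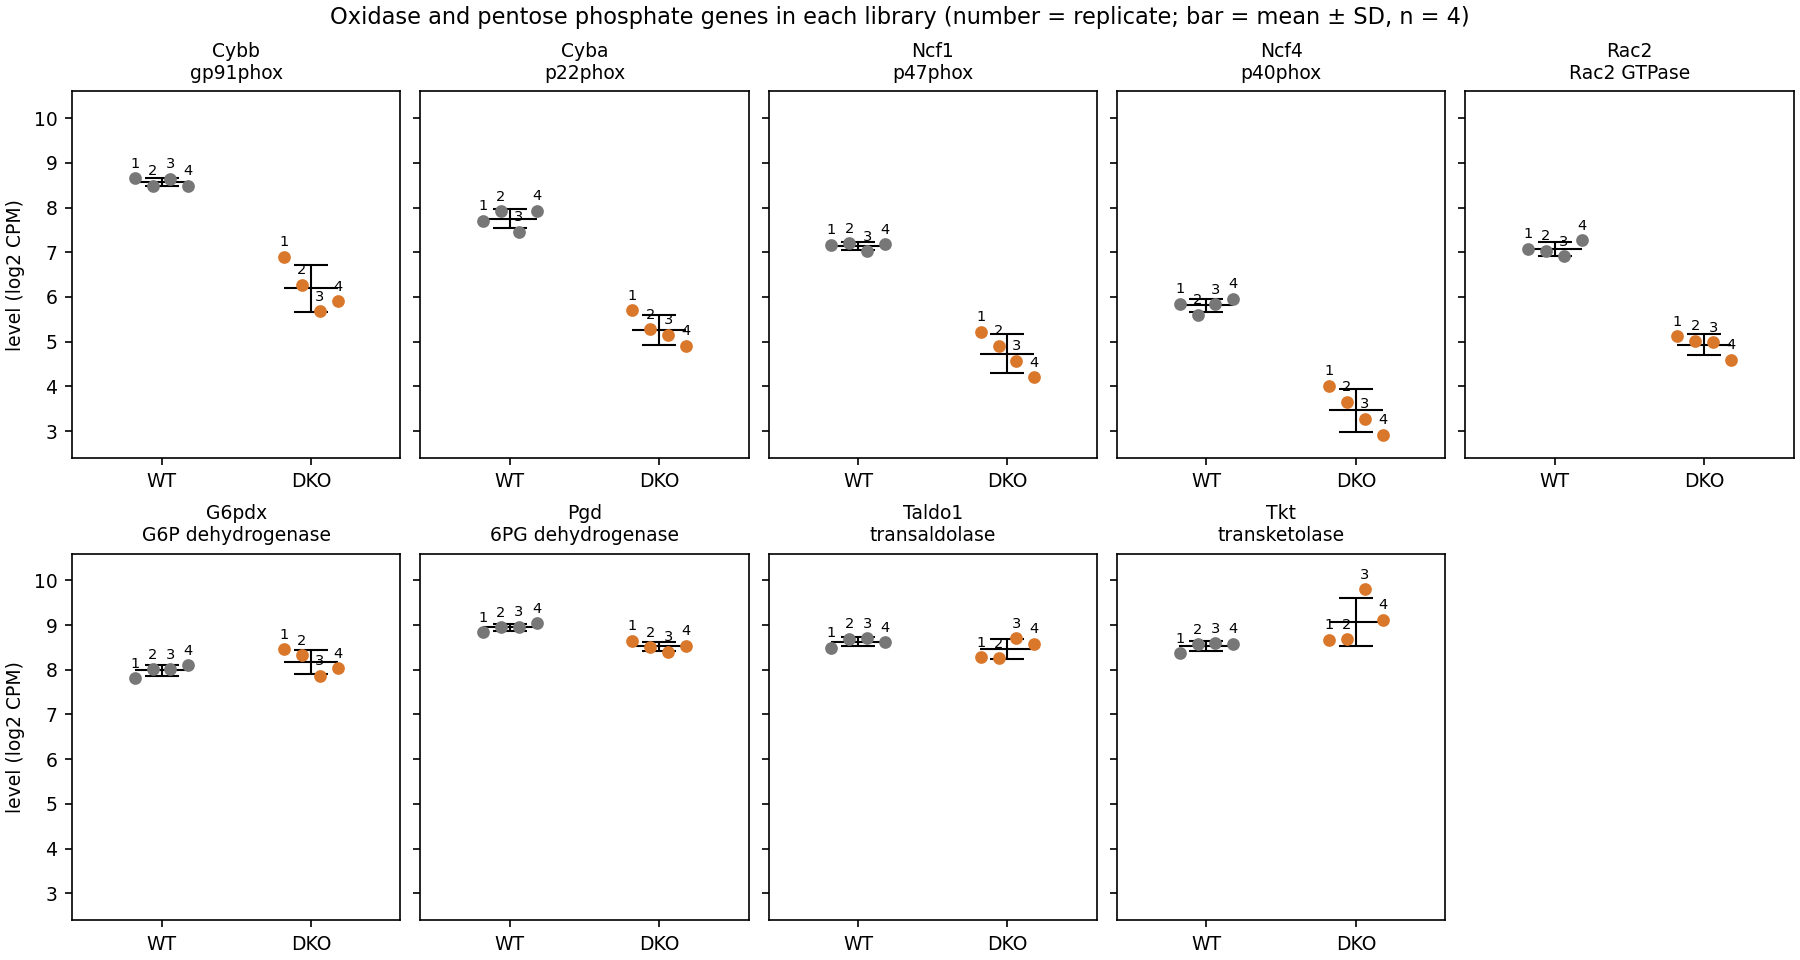
Log2 CPM of the 9 genes in each library (points numbered by replicate; grey WT, orange knockout), with the group mean and SD as bars. The 5 oxidase genes of the upper row lie lower in every knockout library, while G6pdx and Taldo1 overlap between the groups.

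The cytosolic subunits showed the same separation. Ncf1, the organizer that docks on p22phox at the membrane, had WT levels of 7.17, 7.20, 7.02 and 7.18 log2 CPM and knockout levels of 5.22, 4.91, 4.58 and 4.21. WT libraries lay close together and all were above the knockout ones, and the change was −2.41 ± 0.20 (adjusted p = 4.83e-05). Ncf4, the subunit that binds phosphatidylinositol 3-phosphate on phagosomes, stood at 5.84, 5.60, 5.83 and 5.96 log2 CPM in WT and at 4.02, 3.65, 3.27 and 2.92 in the knockout. It was the least abundant of the 9 on this scale, and it changed by −2.34 ± 0.22 (adjusted p = 0.000103). In both genes, as in Cyba, knockout replicate 1 was highest and replicate 4 lowest.

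Rac2, the Rac GTPase of blood cells, stood at 7.08, 7.04, 6.91 and 7.27 log2 CPM in WT and at 5.13, 5.02, 4.99 and 4.59 in the knockout. It varied least among knockout libraries of the 5 oxidase genes (SD 0.23) and changed by −2.14 ± 0.14 (adjusted p = 1.89e-05). Rac1, the related GTPase made by most cell types, differed far less. It stood at 8.53, 8.61, 8.52 and 8.60 log2 CPM in WT and at 8.29, 8.24, 8.27 and 8.38 in the knockout, a change of −0.27 ± 0.09 (adjusted p = 0.041). That small Rac1 call was lost under 13 of 21 other settings, among them without any 1 of the 4 WT replicates or without knockout replicate 2 or 3 (adjusted p from 0.061 to 0.111).

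Within ribosomal RNA classes (3 WT and 1 knockout library with more, 1 WT and 3 knockout libraries with less) the oxidase differences kept their sign. They were −1.70 and −2.53 for Cybb, −1.99 and −2.80 for Cyba, and −1.90 and −2.63 for Ncf1. The Ncf4 differences were −1.86 and −2.32, and those of Rac2 were −1.96 and −2.17. In a fit to all 8 libraries with this class as a second term, all 5 were called. The change was then −2.12 ± 0.21 for Cybb, −2.39 ± 0.20 for Cyba, −2.27 ± 0.21 for Ncf1, −2.09 ± 0.20 for Ncf4 and −2.06 ± 0.15 for Rac2 (adjusted p at most 0.000292).

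Whether genes changed by different amounts was tested within libraries, on the difference in log2 CPM between the genes of a pair, which does not depend on library scaling. Of 18 pairs, 14 passed an exact permutation test (two-sided, 4 against 4, smallest possible p = 0.0286, adjusted p = 0.0367 over the 18). Each of the 9 genes was paired with the macrophage gene Adgre1, and all these pairs passed. They share the same Adgre1 values, so the 14 are not independent results. Minus Adgre1, G6pdx shifted by 3.09, Pgd by 2.48, Taldo1 by 2.73 and Tkt by 3.44. The −2.90 change of Adgre1 beside their own small changes already implies these shifts. Cybb minus Cyba was 0.81 ± 0.30 in WT and 0.93 ± 0.28 in the knockout (SD, n = 4), a shift of 0.11 (exact permutation p = 0.571, adjusted p = 0.643). Ncf1 minus Ncf4 moved by −0.07 (exact permutation p = 0.686, adjusted p = 0.726), and without WT replicate 2 its sign turned.

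Within both pairs of relatives the genes changed by different amounts. Rac2 minus Rac1 was −1.49 ± 0.13 in WT and −3.37 ± 0.29 in the knockout, a shift of −1.87 that passed the exact permutation test at its smallest p. Nox4, a catalytic isoform known from fibroblasts, endothelium and kidney, stood at 3.04, 3.08, 3.49 and 2.99 log2 CPM in WT and 2.98, 2.22, 1.62 and 1.79 in the knockout. Cybb minus Nox4 was 5.42 ± 0.20 in WT and 4.04 ± 0.08 in the knockout. This shift of −1.38 brought their levels closer, as Cybb was lowered more. Nox4 itself changed by −0.997 ± 0.307 (adjusted p = 0.03), a call lost under 7 of 21 other settings, among them without WT replicate 1, 3 or 4 (adjusted p = 0.0595, 0.0838 and 0.0581), without knockout replicate 3 or 4 (adjusted p = 0.0794 and 0.0711) and in a fit with a ribosomal RNA class term (adjusted p = 0.106).

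**Figure D2:**
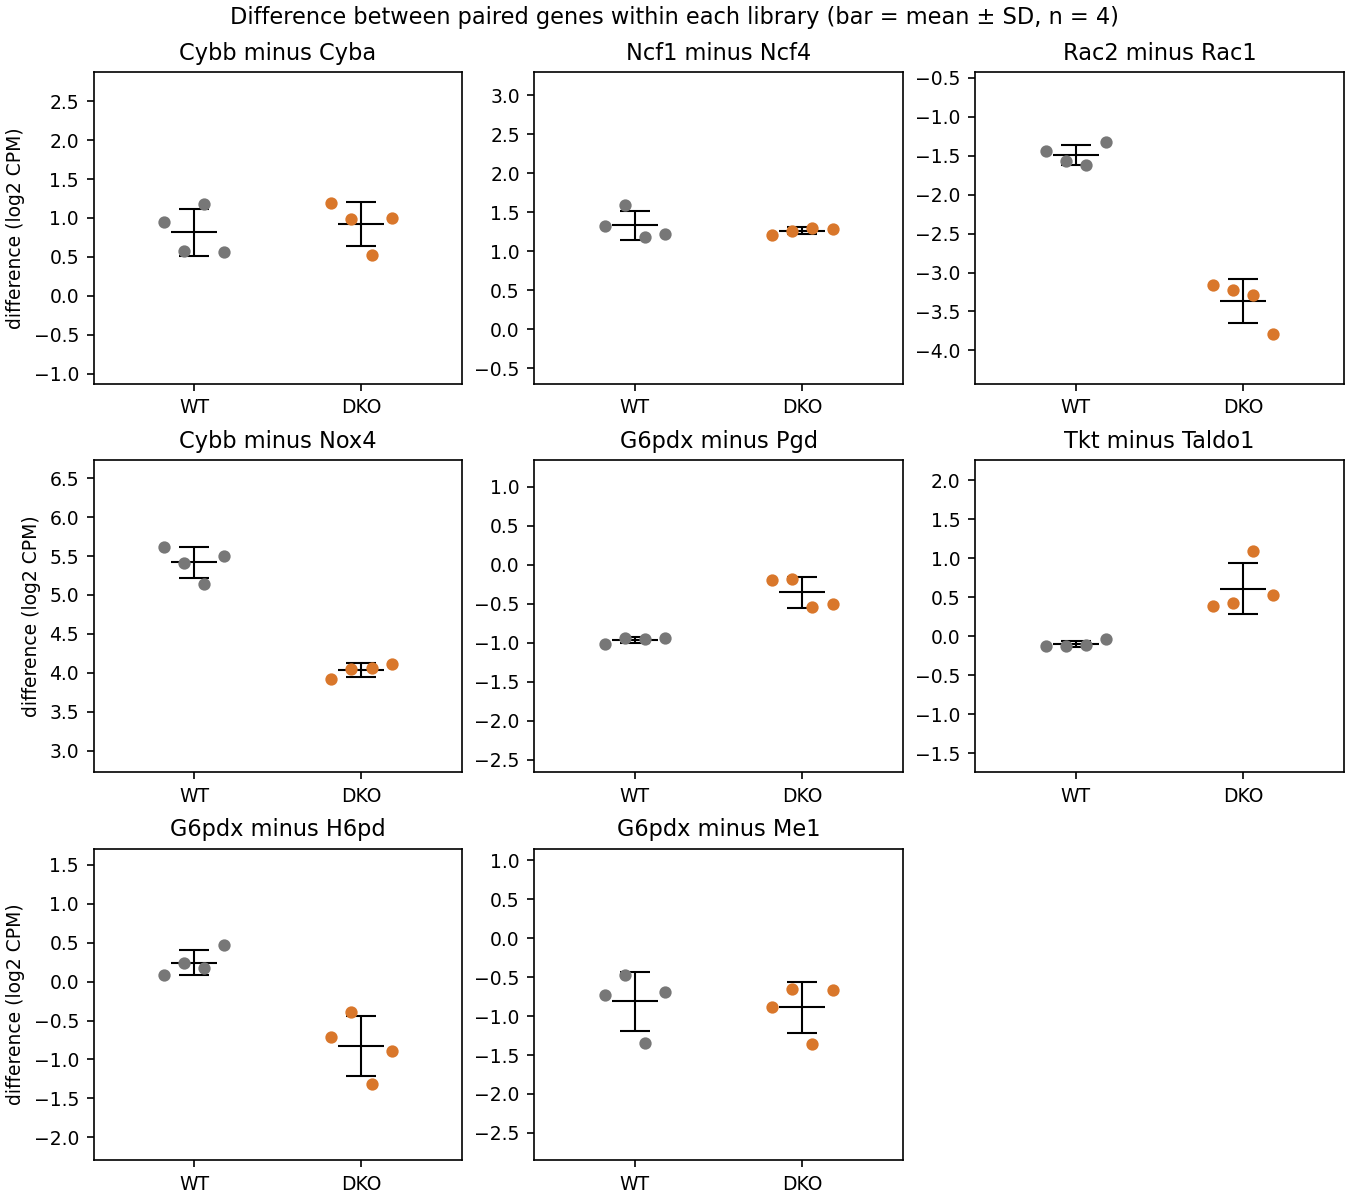
Difference in log2 CPM between the 2 genes of 8 pairs in each library (points; grey WT, orange knockout; bars mean and SD, n = 4); every panel spans the same height. Cybb minus Cyba and Ncf1 minus Ncf4 overlap between the groups, and Rac2 minus Rac1, Cybb minus Nox4, G6pdx minus Pgd, Tkt minus Taldo1 and G6pdx minus H6pd do not.

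Most macrophage markers moved with the oxidase genes. Of 11 tested markers 10 fell and 0 rose by limma (0 rises at an unadjusted p under 0.05 too), with a median change of −2.39, and their summed reads were 0.754% to 0.885% of the library in WT and 0.145% to 0.204% in the knockout. Over all tested genes 16.1% were called lower. The marker that was not called, Mertk, changed by −0.21 ± 0.15 (limma adjusted p = 0.298), and its groups overlapped. In bulk tissue fewer cells of a type and less RNA per cell cannot be told apart, and the part of macrophage number in the oxidase result was not tested. Adgre1, encoding the macrophage protein F4/80, changed by −2.90 ± 0.16, below the markers' median of −2.39, and all 5 oxidase genes fell less than it did. Relative to Adgre1 within libraries, Cybb shifted by 0.53, Cyba by 0.41, Ncf1 by 0.49, Ncf4 by 0.56 and Rac2 by 0.76, each at the smallest p of the exact permutation test. With WT replicate 1 left out the Cyba and Ncf1 shifts no longer passed (adjusted p = 0.0735, exact permutation test), nor did they without WT replicate 3. The same held for Cybb and Ncf4 without WT replicate 2, for Cybb without WT replicate 4 and for Cyba without knockout replicate 3. Each knockout library lay above each WT library in these differences, and with 1 library left out the exact test has fewer arrangements. Against other markers the order differed. Csf1r, the receptor for macrophage colony-stimulating factor, is named after its value was seen and changed by −1.52 ± 0.12, less than any oxidase gene. Of the 11 markers 6 had a lower fitted change than Cybb and 5 a higher one. These numbers were 4 and 7 for Cyba and for Ncf1, 6 and 5 for Ncf4, and 7 and 4 for Rac2.

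Neutrophils and B cells also make the oxidase, and a summed share of marker reads does not count cells. Neutrophil markers took 0.00322% to 0.00684% of reads in WT and 0.00195% to 0.0102% in the knockout, and none of the 5 tested was called by limma (1 at an unadjusted p under 0.05, Csf3r). B cell markers took at most 0.00163% of reads in any library, with 0 of 4 tested called by limma and 0 at an unadjusted p under 0.05. The part of these cells in the oxidase values was not tested. Adipocyte markers were called higher for 8 of 9 tested, and this count ran from 7 to 8 over the other settings. They took 0.822% to 1.46% of reads in WT and 1.94% to 2.65% in the knockout. Of all tested genes, 16.1% were called lower and 22.7% higher.

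By the root mean square difference between profiles over the 8 libraries, each centred on its own mean, the 5 tested genes most like Cybb were Clec4a2 (0.12), Itgam (0.14), Fmn1 (0.16), Naip2 (0.17) and Gpr65 (0.17). These changed by −2.22, −2.40, −2.37, −2.15 and −2.43. Those most like G6pdx were Rab38 (0.06), Rnf214 (0.08), Myl12a (0.10), Cyb5r3 (0.10) and Gtf2e1 (0.11), with changes between 0.04 and 0.20. The profiles hold the difference between the groups, so genes picked this way were bound to have changes near those of Cybb or G6pdx.

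Other genes of oxidase assembly and control were mostly lower too. Of 12 tested, 7 fell and 1 rose, with a median change of −0.88, where 16.1% of all tested genes were called lower and 22.7% higher. Vav1, a blood cell exchange factor that loads Rac with GTP, changed by −2.19 ± 0.15. Hvcn1, the proton channel that carries out the charge left by the electrons, changed by −1.64 ± 0.12, and Arhgdib, which holds Rac in the cytosol, by −1.46 ± 0.14. Prkcd, a kinase that phosphorylates p47phox, changed by −1.72 ± 0.23. The gene that rose, Poldip2, described as a partner of p22phox and Nox4, changed by 0.72 ± 0.11 and is named here because it was the single rise. Over 21 other settings the count lower ran from 5 to 8, reaching 5 for instance in a fit with a ribosomal RNA class term, while the count higher was 1 in each. The median of this list was −0.49 with that term.

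In the oxidative branch Pgd fell and G6pdx was not called. G6pdx, the entry enzyme, stood at 7.82, 8.01, 8.01 and 8.11 log2 CPM in WT and at 8.46, 8.32, 7.86 and 8.03 in the knockout. Knockout replicates 1 and 2 were above all WT libraries and replicates 3 and 4 lay among them. The change was 0.19 ± 0.14 with an unadjusted 95% interval of −0.14 to 0.51 (adjusted p = 0.333). Relative to the median of all tested genes it was 0.01, with −0.60 for Pgd, −0.35 for Taldo1 and 0.36 for Tkt. G6pdx has a near-identical retrogene, G6pd2, so its counts are uncertain to the extent that the copies shared reads.

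Pgd, the second NADPH-making step, stood at 8.84, 8.95, 8.97 and 9.04 log2 CPM in WT and at 8.65, 8.50, 8.41 and 8.54 in the knockout. Each knockout library was below each WT library, though by little, and the change was −0.42 ± 0.10 (adjusted p = 0.0109). In the 5 libraries with under 1% epididymis reads the Pgd change was −0.42 but did not pass (adjusted p = 0.119). G6pdx minus Pgd was −0.96 ± 0.04 in WT and −0.36 ± 0.20 in the knockout, a shift of 0.61 at the smallest p of the exact permutation test. Within ribosomal RNA classes the differences were 0.48 and 0.07 for G6pdx and −0.30 and −0.47 for Pgd.

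In the other branch, Taldo1 stood at 8.49, 8.69, 8.71 and 8.62 log2 CPM in WT and at 8.28, 8.26, 8.71 and 8.59 in the knockout. The groups overlapped, with knockout replicates 1 and 2 below WT and replicate 3 level with its highest library. The change was −0.17 ± 0.13 with an unadjusted 95% interval of −0.47 to 0.13 (adjusted p = 0.326). It passed with median-ratio size factors (−0.31, adjusted p = 0.0408).

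Tkt, transketolase, stood at 8.37, 8.57, 8.59 and 8.58 log2 CPM in WT and at 8.67, 8.69, 9.80 and 9.12 in the knockout. All knockout libraries were above all WT libraries, replicates 1 and 2 barely and replicate 3 by the most. The change was 0.54 ± 0.24 and did not pass (adjusted p = 0.0997). It passed without knockout replicate 1 (0.67, adjusted p = 0.0488) and with array weights (0.81, adjusted p = 0.0155), and it was 0.30 without knockout replicate 3 (adjusted p = 0.163). Knockout replicates 3 and 4, the highest in Tkt, also had the most red blood cell reads (0.406% and 1.20%), and the part of these cells in the Tkt level was not tested. Tkt minus Taldo1 shifted by 0.71, from −0.10 ± 0.04 in WT to 0.61 ± 0.33, at the smallest p of the exact permutation test. Within ribosomal RNA classes the differences were 0.15 and 0.64 for Tkt and −0.33 and −0.17 for Taldo1.

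Levels of different genes were compared per kilobase of exon (GENCODE M21 lengths, while the reads were counted on mm9). A gene's length covered all its annotated exons, of every transcript type, from 1039 bases for Cyba to 7355 for Tkt. The order below therefore depends on the annotation, and lengths of single transcripts were not used. In WT tissue Cyba averaged 209 ± 30.6 CPM per kilobase (SD, n = 4) and Taldo1 183 ± 12.2, and these overlapped. G6pdx (82.5 ± 6.80) and Pgd (76.8 ± 4.40) followed and overlapped each other, then Cybb (65.4 ± 4.11), apart from both neighbours. Tkt (50.3 ± 3.57) overlapped Rac2 (43.6 ± 4.57), which overlapped Ncf1 (38.6 ± 2.16), and Ncf4 was lowest (27.9 ± 2.77). In the knockout the 4 pentose genes had the highest means of the 9. Taldo1 led with 163 ± 25.4, followed by G6pdx (94.8 ± 17.6), Tkt (77.1 ± 31.0) and Pgd (57.3 ± 4.05), of which G6pdx overlapped Tkt and Tkt overlapped Pgd. Cyba (37.7 ± 9.12) lay below all of them without overlap. Cybb followed (13.3 ± 5.20), overlapping Rac2 (9.93 ± 1.50), which overlapped Ncf1 (7.49 ± 2.22), which overlapped Ncf4 (5.69 ± 1.86).

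**Figure D3:**
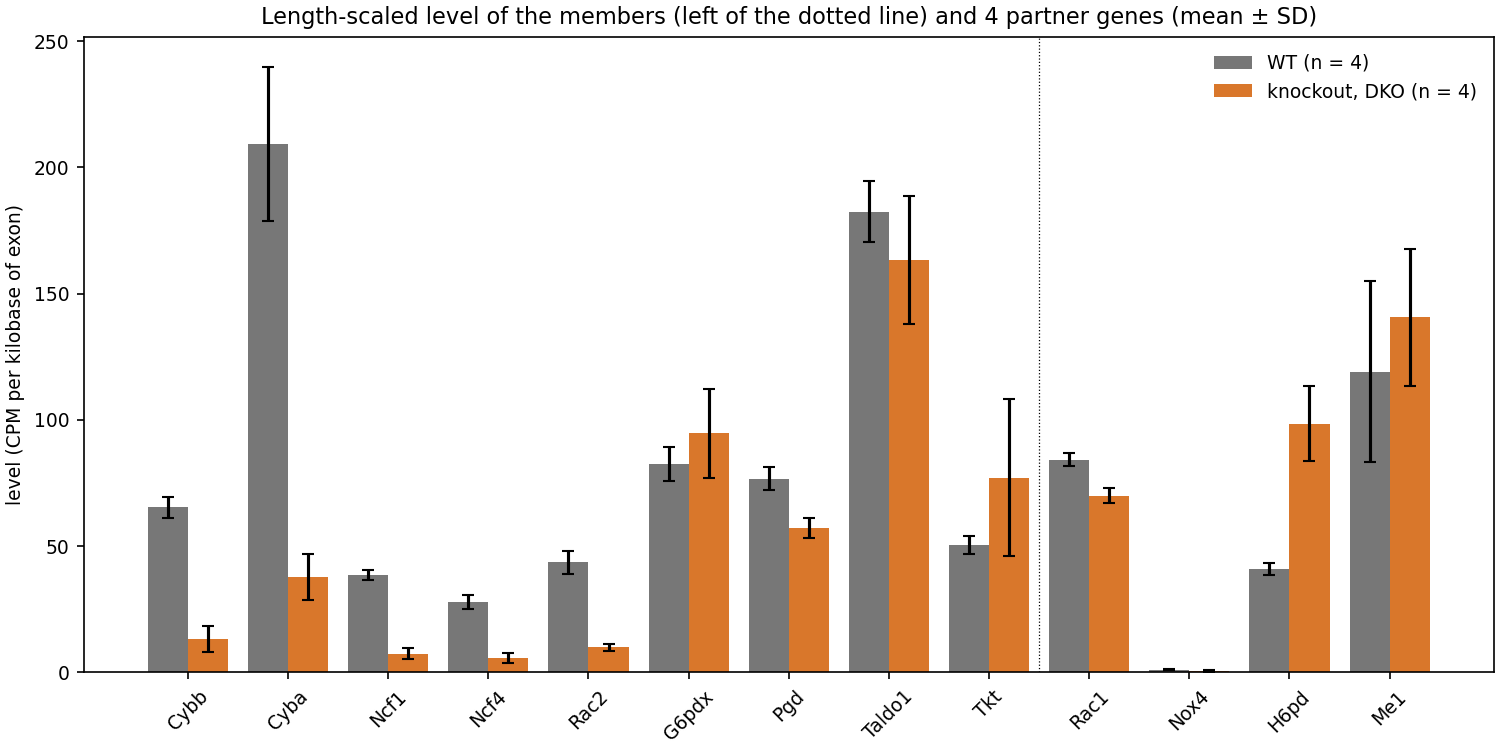
Mean level in CPM per kilobase of exon (bars, with SD, n = 4; grey WT, orange knockout) of the 9 genes, left of the dotted line, and of 4 partner genes. Cyba stands at 209 in WT and 37.7 in the knockout, while G6pdx stands at 82.5 and 94.8.

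Among the other enzymes of the pentose pathway, 3 of 9 tested rose and 1 fell, with a median change of 0.15. These shares are near those of all tested genes, 22.7% called higher and 16.1% lower. H6pd, the G6P dehydrogenase of the endoplasmic reticulum, which supplies NADPH to the glucocorticoid-activating enzyme there, stood at 7.73, 7.77, 7.84 and 7.65 log2 CPM in WT and at 9.17, 8.71, 9.18 and 8.92 in the knockout. All knockout libraries were clearly above WT, and the change was 1.25 ± 0.13 (adjusted p = 0.000143). G6pdx minus H6pd accordingly shifted by −1.07 at the smallest p of the exact permutation test, though it did not pass without WT replicate 4 (−0.99, adjusted p = 0.0735, exact permutation test). Shpk, which makes sedoheptulose 7-phosphate, rose by 1.41 ± 0.24, and the ribose-phosphate isomerase Rpia by 0.54 ± 0.14, a call lost without WT replicate 4 (adjusted p = 0.0502) and under 2 other settings. Dera, which splits deoxyribose phosphate, fell by 0.81 on the log2 scale.

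Of 14 other tested genes listed for NADPH supply, 6 rose and 0 fell by limma (median 0.35). Me2 was lower at an unadjusted p under 0.05. Not every gene of this list makes NADPH itself, the NAD kinases being among those that do not. Over all tested genes 22.7% were called higher. Adipocyte markers were higher in the same libraries (8 of 9 tested, 7 to 8 over the other settings, median change 1.79). The part of adipocyte markers in the values of this list was not tested. Nnt, the transhydrogenase of the inner mitochondrial membrane, rose by 1.43 ± 0.14. C57BL/6J mice are known to carry a deletion in Nnt, and the labels give no substrain of C57BL/6. The level of Nnt was 4.31 to 4.69 log2 CPM in WT and 5.66 to 6.09 in the knockout, and the part of strain background in it was not tested. The mitochondrial isocitrate dehydrogenase Idh2 rose by 0.92 ± 0.16. Aldh1l1, which makes NADPH in folate metabolism, rose by 1.19 ± 0.23, and the NAD kinase Nadk by 0.46 ± 0.12, a call lost under 3 of 21 other settings. These were median centring (adjusted p = 0.0589), the ribosomal RNA class term (adjusted p = 0.055) and the 5 libraries under 1% epididymis reads (adjusted p = 0.0851). Cytosolic malic enzyme (Me1), a NADPH source for fatty acid synthesis, stood at 8.55, 8.48, 9.36 and 8.80 log2 CPM in WT and at 9.35, 8.97, 9.22 and 8.70 in the knockout. The groups overlapped for Me1 (0.26 ± 0.22, adjusted p = 0.367), and G6pdx minus Me1 moved by −0.08 (exact permutation p = 0.743, adjusted p = 0.743). The count of higher genes in this list was 3 with the ribosomal RNA class term, 4 without WT replicate 4, without knockout replicate 4 or in the 5 libraries under 1% epididymis reads, and at most 7. In those 5 libraries 2 genes of the list, Mthfd2 and Mthfd1l, were called lower (−0.90, adjusted p = 0.0169, and −1.26, adjusted p = 0.0203). Both were picked out after their values were seen.

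**Figure D4:**
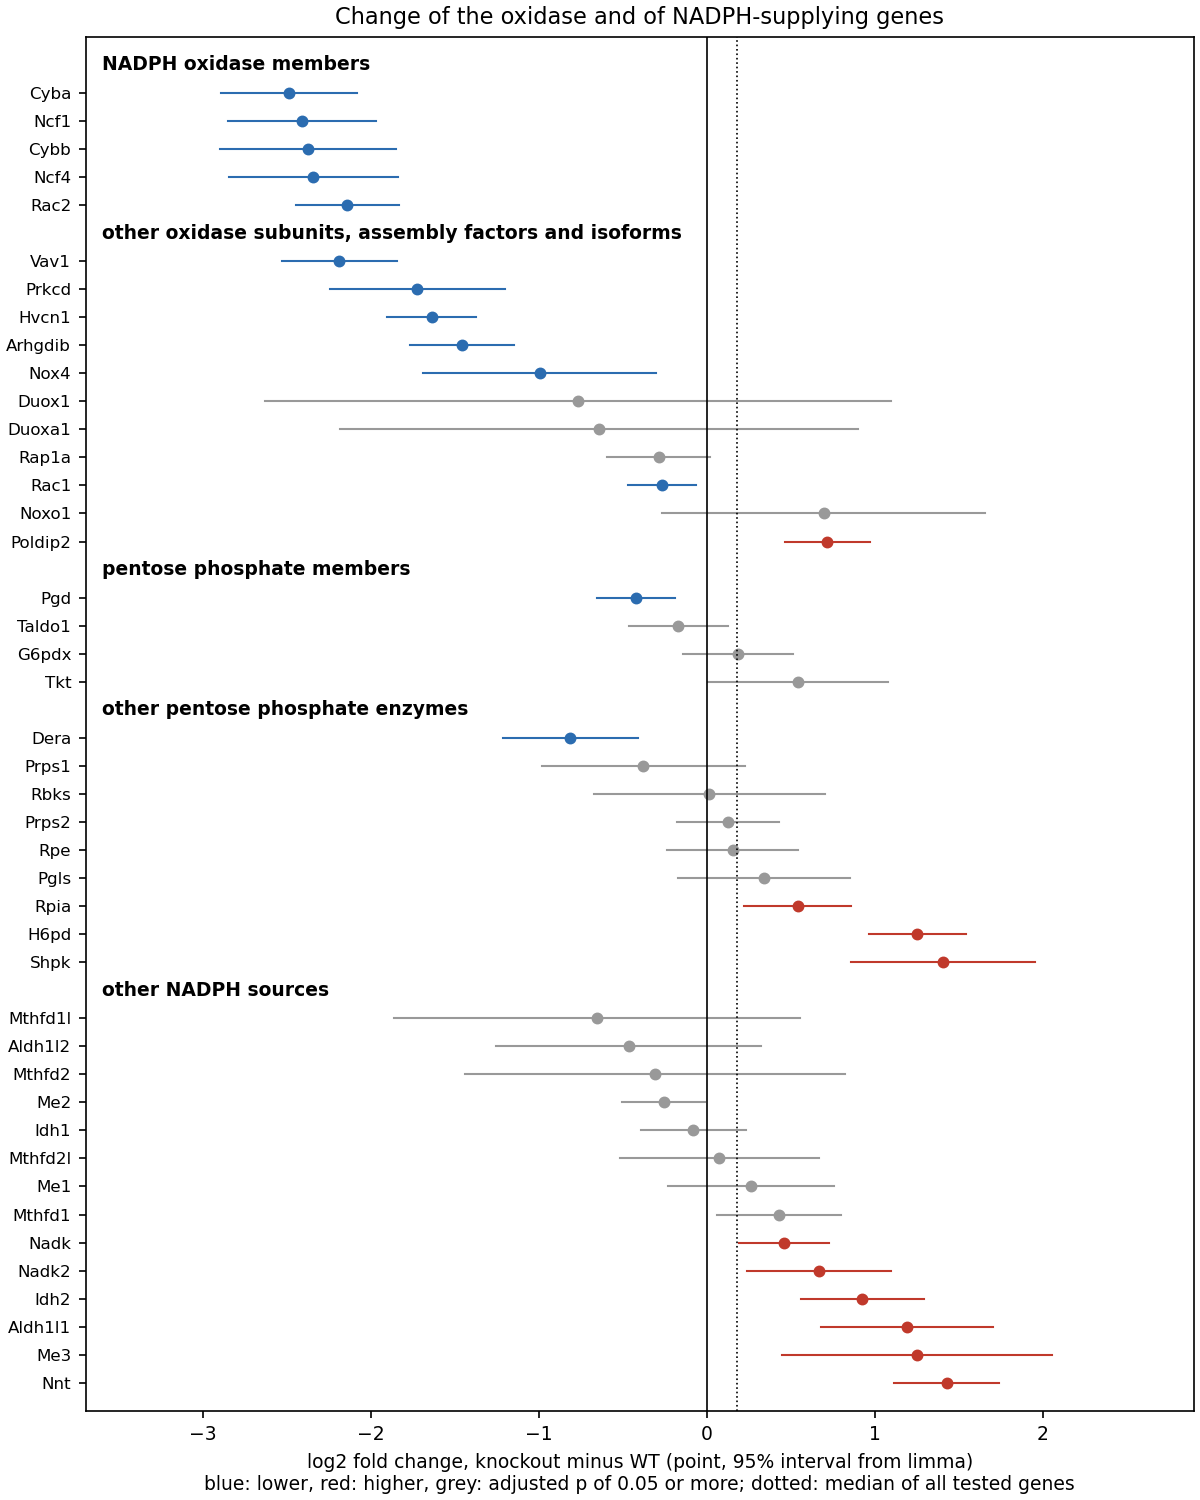
Log2 fold change (x axis, knockout minus WT, point with unadjusted 95% interval) of oxidase genes and of genes listed for NADPH supply, by list. Blue marks genes called lower, red those called higher and grey the others. The dotted line is the median of all tested genes, 0.18. The 5 oxidase genes lie between −2.49 and −2.14, and the 4 pentose genes between −0.42 and 0.54.

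The NADPH-making pentose enzymes are known targets of NRF2, the transcription factor of the oxidative stress response, so its other targets are given beside them. Of 10 tested, 6 fell and 0 rose by limma (0 rises at an unadjusted p under 0.05), with a median change of −0.84, where 16.1% of all tested genes were called lower. A difference from the pentose genes was not tested. Hmox1, heme oxygenase, changed by −3.07 ± 0.27 and Srxn1, sulfiredoxin, by −2.28 ± 0.16. Txnrd1, thioredoxin reductase, changed by −0.997 ± 0.104, and Nfe2l2, which encodes NRF2 itself, by −0.66 ± 0.10. Macrophages express Hmox1 and Srxn1 as well, and the part of macrophage markers in these values was not tested.

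Enzymes that remove superoxide and peroxide split. Of 11 tested, 7 rose and 1 fell (median 0.51), where 22.7% of all tested genes were called higher and 16.1% lower. Prdx1, a peroxiredoxin, stood at 11.08, 11.53, 11.11 and 11.43 log2 CPM in WT and at 8.86, 9.18, 9.16 and 9.39 in the knockout, a change of −2.14 ± 0.18. Per kilobase it was the most abundant of this list in WT, at 830 ± 132 CPM, and fell to 188 ± 27.7. Prdx6, the peroxiredoxin that also acts as a phospholipase, rose by 1.06 ± 0.25, cytosolic superoxide dismutase (Sod1) by 1.03 ± 0.25 and the lipid peroxide reductase Gpx4 by 0.64 ± 0.16. The count higher fell to 4 without WT replicate 1, without WT replicate 4, without knockout replicate 3 or with median centring.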

How the data were processed

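Per the labels' protocols, RNA was extracted with TRIzol and columns, and stranded TruSeq libraries were read as single ends. Per the submitters' processing notes, Trimmomatic, TopHat2, featureCounts and limma were used with build mm9. Their versions, settings and gene filter were not given in the sources used here. Deposited values are the authors' voom log2 CPM of 16505 genes, whose formula offsets counts by 0.5 and totals by 1. Inverting that formula gave library totals and whole reads (100% of values within 0.01 read).

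Genes averaging 0 log2 CPM or more over the 8 libraries were tested with limma 3.58.1 in R 4.3.3 (lmFit, eBayes with trend, group as the only term), with Benjamini-Hochberg adjustment over all of them. The 9 genes and all gene lists were chosen with earlier results of these data known. Named genes are the 9, up to 4 per list with the smallest p, the genes of the 18 pairs, and the 5 genes most like Cybb and the 5 most like G6pdx. Csf1r, Mertk, Csf3r, Poldip2, Me2, Mthfd2 and Mthfd1l fall outside this rule and were named after their values were seen. Reads were also simulated with the same dispersion, 0.02, for every gene, 200 genes changed, and no ribosomal RNA, epididymis or blood differences between libraries. Of 14396 such genes tested, limma called 93.9% of 99 given a 2-fold change, 100% of 99 given a 4-fold change, and 3 unchanged ones. These shares need not hold for the deposited libraries, whose spread and composition differ from that setting. Alternatives (21) were other scales, filters, normalizations, variance models, weights, covariates, the replicate block and leaving out libraries. Values of 1 gene that enters the list counts and 1 of the 18 pairs are not reported here. Plots were drawn with matplotlib 3.10.9.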

Additional observations from a re-analysis of the deposited data

Results flagged for a closer look

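Among 30 groups of 4 libraries (the 9 genes and 6 partner genes in each group), 1 held a library that stood apart by Dixon's criterion, where chance gives about 1 in 20. Tkt in WT replicate 1 was at 8.37 log2 CPM, below the other WT libraries at 8.57 to 8.59, and the gap was 0.878 of the group's range. WT replicate 1 also had the most ribosomal RNA reads, 11.5%, and the part of these reads in its Tkt level was not tested. Without WT replicate 1 the Tkt change was 0.49 (adjusted p = 0.206).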

How the results depend on the processing

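Cybb, Cyba, Ncf1, Ncf4 and Rac2 kept their direction and their call under all 21 alternatives, with changes from −2.75 (Cyba) to −2.03 (Rac2) and adjusted p of at most 0.00101. G6pdx was not called under any, at 0.04 to 0.29. Pgd kept its direction and was no longer called once libraries above 1% epididymis reads were left out (−0.42), where 0 pentose genes were called lower. Taldo1 was called with voom on whole reads and median-ratio size factors (−0.31), where the pentose count was 2. Tkt was called with array weights (0.81), and with single libraries left out its change ran from 0.30 to 0.67. Of 162 recomputed pair shifts 150 kept direction and call, 9 lost the call and 3 turned in sign, with Ncf1 minus Ncf4 running from −0.12 to 0.0201 and G6pdx minus Me1 from −0.26 to 0.0792 when single libraries were left out. With 1 library left out fewer arrangements of the samples exist for the exact test. Same-numbered libraries deviated together for replicates 1 to 3 (correlation 0.36, 0.79 and 0.24) but not for replicate 4 (−0.36), and WT replicate 2 was the only WT library whose best match had its own number, so the numbers are not taken as pairs. The replicate block kept 5 oxidase calls and 1 pentose call and gave 2136 lower and 3232 higher genes, against 2216 and 3137. Depth limits Ncf4 most, with 60 reads in its shallowest library.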
